A study of Mus musculus with 11 samples.

Results

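Heterotrimeric G protein subunits, the regulators of G protein signalling (RGS proteins), adenylyl cyclases, cyclic nucleotide phosphodiesterases, protein kinase A subunits and the cAMP-activated exchange factors Epac were followed in sorted cells of the mouse duodenum. The members were all genes whose symbol begins with Gna, Gnb, Gng, Rgs, Adcy, Pde, Prkac or Prkar followed by a subtype, together with Rapgef3 and Rapgef4, and whose counts summed to at least 15 over the 11 libraries. Within this rule the total alone was used and no difference between groups, but the rule was set with earlier results of these data known. These were 91 of the 38283 genes in the table: 14 G alpha, 4 G beta, 10 G gamma, 21 RGS, 9 adenylyl cyclase, 6 protein kinase A, 2 Epac and 25 phosphodiesterase genes. A further 10 symbols of the same form fell below 15 counts, among them the taste and rod transducins Gnat3 with 9 and Gnat1 with 13 counts, Rgs20 with 12 counts and the soluble cyclase Adcy10 with 0. A few members carry the family name without the family activity: Pde4dip is a scaffold protein, Pde6d binds prenylated proteins, Pde12 cleaves oligoadenylates, and Rgs7bp and Rgs9bp are membrane anchors of RGS proteins.

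A ligand-bound receptor loads a G alpha subunit with GTP, which frees it from its beta-gamma partner. Gs stimulates adenylyl cyclase, Gi and Go restrain it or act through beta-gamma, Gq switches on phospholipase C, and RGS proteins end the signal by speeding GTP hydrolysis. The cAMP that cyclases make acts on protein kinase A and Epac and is broken down by phosphodiesterases, and in enteroendocrine cells, the hormone-secreting cells of the gut epithelium, a rise in cAMP is a known trigger of hormone release.

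Cells of digested duodenal epithelium had been sorted by fluorescence into reporter-positive cells and a like number of reporter-negative cells from each of a pair of mouse strains kept on standard chow. The groups were NeuroD1 positive (3 libraries) and NeuroD1 negative (3 libraries) from Neurod1-cre-eYFP mice, and Glu positive (3 libraries) and Glu negative (2 libraries) from GluVenus mice. In the first strain Cre recombinase expressed from Neurod1, an enteroendocrine transcription factor gene, switches on a yellow fluorescent protein, so that cells which once expressed Cre and their descendants can carry the label. In GluVenus mice the fluorescent protein Venus is driven by the promoter of the proglucagon gene. The labels give no age, sex, genetic background or pooling of animals and describe no treatment.

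Libraries held 2279595 to 5722381 counts. Values per library are listed in the order NeuroD1_positive_6360, NeuroD1_positive_6361 and NeuroD1_positive_6362, the same order for the NeuroD1 negative libraries, Glu_positive_5254, Glu_positive_5160 and Glu_positive_4665, and Glu_negative_5254 and Glu_negative_4665. Levels are CPM after TMM scaling, that is counts relative to the scaled size of the library, means are given ± SD, and changes are log2 fold changes ± SE. Whether libraries of a group came from different animals is not stated in the labels, and the p-values therefore reflect the spread among libraries, which may be technical. Summed over 10 enteroendocrine markers, the positive cells held 105353 to 148850 CPM in NeuroD1 and 47203 to 106532 CPM in Glu mice, against 3281 to 4065 CPM in NeuroD1 negative and 4092 to 5391 CPM in Glu negative cells. Markers of other cells were also present: 8 enterocyte genes summed to 2519 to 3321 CPM in NeuroD1 positive, 3578 to 4466 CPM in Glu positive, 4169 to 12646 CPM in NeuroD1 negative and 3036 to 3816 CPM in Glu negative libraries. Most of the sum in positive libraries was Sis, at 2057 to 2704 CPM in NeuroD1 and 2590 to 3582 CPM in Glu mice. Sis was at 839 to 2911 CPM in NeuroD1 negative and 534 and 897 CPM in Glu negative libraries. Of the 8 genes, 7 were lower in NeuroD1 positive cells, and 4 were lower and 1 higher in Glu positive cells.

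Reporter-positive cells of both strains had more RNA of the G alpha genes Gnao1 and Gnai1, of the gamma subunit Gng4 and of the calcium- or beta-gamma-regulated cyclases Adcy1 and Adcy2, and less of the cyclase Adcy7 and the phosphodiesterase Pde4b. The calls of Adcy1 in NeuroD1 mice, of Pde4b in Glu mice and of Adcy7 in both were lost without certain single libraries, as given below. Enough counts for a test were found for 79 members, and the other 12 were Gna14, Gnb5, Gng7, Gngt1, Rgs6, Rgs9bp, Rgs11, Rgs18, Adcy4, Pde6a, Pde6b and Pde6g. In NeuroD1 mice 17 members passed the test (adjusted p under 0.05, edgeR) on the higher and 5 on the lower side of the positive cells, in a comparison where 14.2% of the 14332 genes tested passed (6.57% higher and 7.61% lower). In Glu mice 12 members were higher and 3 lower, in a comparison where 6.64% of all genes passed (4.22% higher and 2.41% lower). The median change over the tested members was 0.49 in NeuroD1 and 0.22 in Glu mice, beside 0.02 and 0.12 over all genes tested. In sorted bulk RNA, fewer cells of a type and less RNA per cell cannot be told apart.

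**Figure D1:**
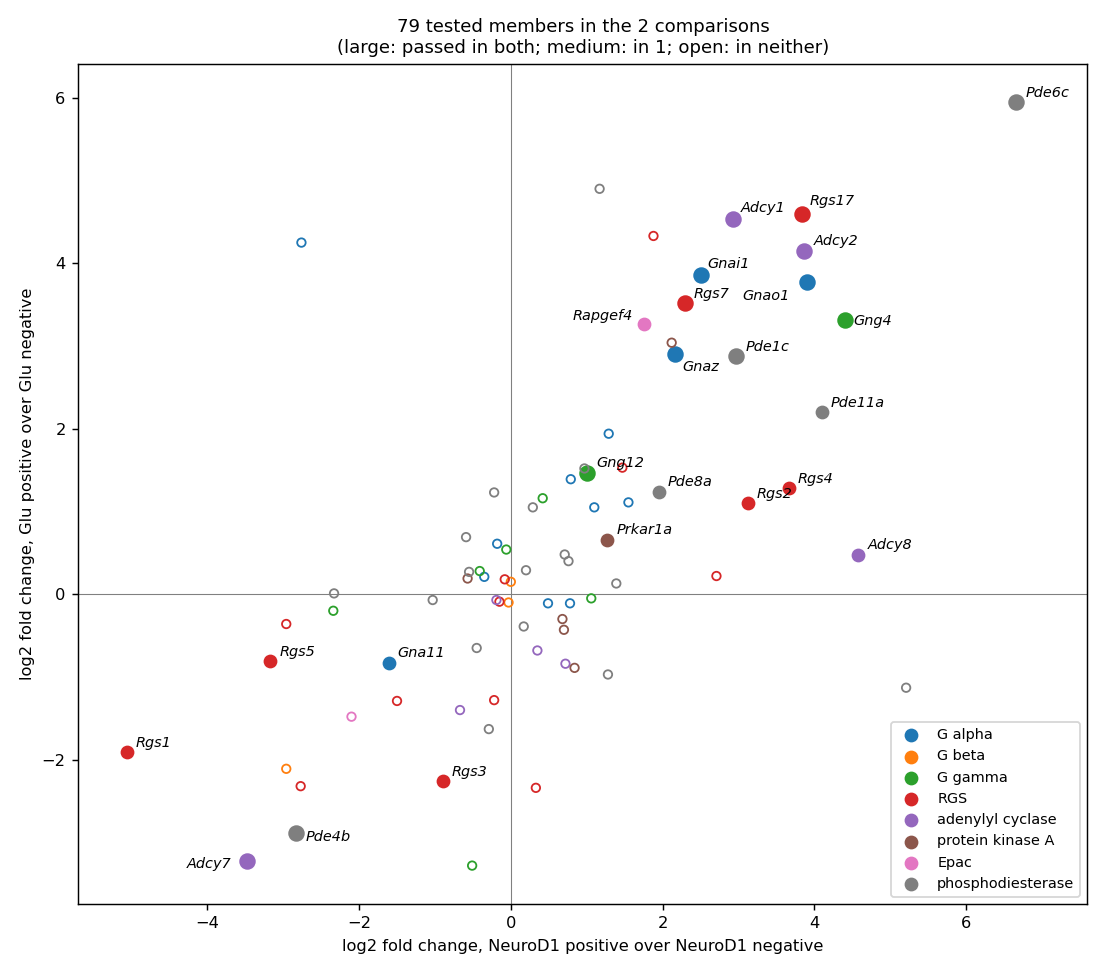
Log2 fold change of each of the 79 tested members in NeuroD1 mice (x axis) and in Glu mice (y axis), positive over negative cells, coloured by family, with large points for members that passed in both comparisons, medium points for 1 and open points for neither. The 11 members that passed on the higher side in both strains stand at the upper right and Adcy7 and Pde4b at the lower left; the place of Pde6c on the x axis rests on a negative group at 0 counts and is no bound.

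The comparisons within each strain share no library, but all 11 libraries were fitted together with the same filter, scaling and estimate of the spread. With the Glu groups fitted alone, 7 of the 15 Glu calls were lost (Gnaz, Gng12, Rgs3, Rgs7, Adcy1, Pde1c and Pde6c). Of the members called, 11 were higher in both strains, which is 64.7% of the 17 in NeuroD1 mice and 91.7% of the 12 in Glu mice: Gnai1, Gnao1, Gnaz, Gng4, Gng12, Rgs7, Rgs17, Adcy1, Adcy2, Pde1c and Pde6c. Adcy7 and Pde4b were lower in both, 40.0% of the 5 and 66.7% of the 3. No member was called in opposite directions. How many of all genes tested passed in both strains was not counted, so these shares have no baseline. All 10 enteroendocrine markers were also higher in the positive cells of each strain.

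Of 13 G alpha genes tested, Gnao1, Gnai1 and Gnaz, members of the Gi/o class, were higher in each strain, and the other 3 genes of that class did not pass. Among all genes tested, 6.57% were higher and 7.61% lower in NeuroD1 mice, and 4.22% and 2.41% in Glu mice. Gna11 was lower in NeuroD1 mice, and the classes were not tested against each other. Gnao1, which encodes the Go subunit abundant in neurons and endocrine cells, stood at 202, 314 and 263 CPM in NeuroD1 positive cells, against 13.4, 19.6 and 19.2 CPM in NeuroD1 negative cells. It stood at 330, 141 and 283 CPM in Glu positive cells, against 19.0 and 17.8 CPM in Glu negative cells. Every positive library thus lay several-fold above every negative one, and Gnao1 rose by 3.91 ± 0.39 in NeuroD1 mice (adjusted p = 3.4e-06, edgeR) and by 3.77 ± 0.46 in Glu mice (adjusted p = 8.98e-05). Gnai1, an inhibitor of adenylyl cyclase, had 118, 242 and 180 CPM in NeuroD1 positive cells, against 19.4, 47.2 and 29.7 CPM in NeuroD1 negative cells. It had 420, 182 and 213 CPM in Glu positive cells, against 20.1 and 17.4 CPM in Glu negative cells. These groups did not overlap either, and Gnai1 rose by 2.50 ± 0.43 in NeuroD1 mice (adjusted p = 0.000526) and by 3.86 ± 0.53 in Glu mice (adjusted p = 0.00021). Positive libraries lay above all negative ones for 18.3% of all genes tested in NeuroD1 mice and 15.8% in Glu mice. These shares apply wherever positive libraries are said below to lie above the negative ones.

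The third of them, Gnaz, encodes the pertussis toxin-resistant Gz and was the least firm. It had 23.1, 70.2 and 55.1 CPM in NeuroD1 positive cells, against 9.87, 13.1 and 10.5 CPM in NeuroD1 negative cells, a rise of 2.16 ± 0.69 (adjusted p = 0.0424, edgeR). In Glu positive cells it had 125, 13.8 and 22.8 CPM, against 4.86 and 9.38 CPM in Glu negative cells, and the rise of 2.90 ± 0.82 (adjusted p = 0.0407) became 1.36 without Glu_positive_5254 (adjusted p = 0.173). The other Gi genes were high in all groups: Gnai2 averaged 183 CPM in NeuroD1 positive, 130 CPM in NeuroD1 negative, 171 CPM in Glu positive and 185 CPM in Glu negative cells, and Gnai3 93.8 to 143 CPM over the groups.

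Gna11, a Gq-class subunit that couples receptors to phospholipase C, was the G alpha gene that passed on the lower side. It was at 113, 101 and 103 CPM in NeuroD1 positive cells, against 306, 255 and 406 CPM in NeuroD1 negative cells, with no overlap and a change of -1.61 ± 0.37 (adjusted p = 0.00569, edgeR). Positive libraries lay below all negative ones for 17.2% of all genes tested in NeuroD1 mice. Glu mice had 65.5, 134 and 195 CPM in positive cells, against 268 and 201 CPM in negative cells, and did not pass. Per kilobase of exon, Gna11 made up 9.46% of all G alpha CPM in NeuroD1 positive and 35.9% in NeuroD1 negative libraries, and 11.2% in Glu positive and 29.2% in Glu negative libraries. Gnai1 held 20.4% in NeuroD1 positive and 4.76% in NeuroD1 negative libraries, and 26.1% in Glu positive and 3.06% in Glu negative libraries.

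Gnas, which encodes Gs, did not pass in any comparison. It was at 356, 357 and 333 CPM in NeuroD1 positive cells, against 192, 216 and 201 CPM in NeuroD1 negative cells. Glu mice had 169, 109 and 266 CPM in positive cells, against 199 and 193 CPM in negative cells. The NeuroD1 groups did not overlap, as holds with the positive cells higher for 18.3% of all genes tested, while the Glu positive libraries lay on both sides of the Glu negative ones. On 13.1% of its exon bases Gnas overlaps Gm20721, a gene on the opposite strand with 16306 counts over the 11 libraries, and the labels do not say whether counting used strand. Gnal, which encodes the olfactory Golf subunit, varied between 2.29 and 36.0 CPM among the NeuroD1 positive libraries and between 2.12 and 32.2 CPM among the Glu positive ones, with 4.02 to 15.3 CPM in NeuroD1 negative and 8.84 and 9.38 CPM in Glu negative libraries. Gna12 and Gna13, the subunits of the G12 class, did not pass within either strain, at 100 ± 3.92 CPM of Gna13 in NeuroD1 positive and 128 ± 10.6 CPM in NeuroD1 negative cells. Gnaq, the widely expressed Gq gene, averaged 129 ± 32.7 CPM in NeuroD1 positive and 74.5 ± 21.7 CPM in NeuroD1 negative cells, and 88.5 ± 61.5 CPM in Glu positive and 33.7 ± 0.507 CPM in Glu negative cells, and did not pass. The cone transducin gene Gnat2 averaged at most 3.48 CPM in any group.

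**Figure D2:**
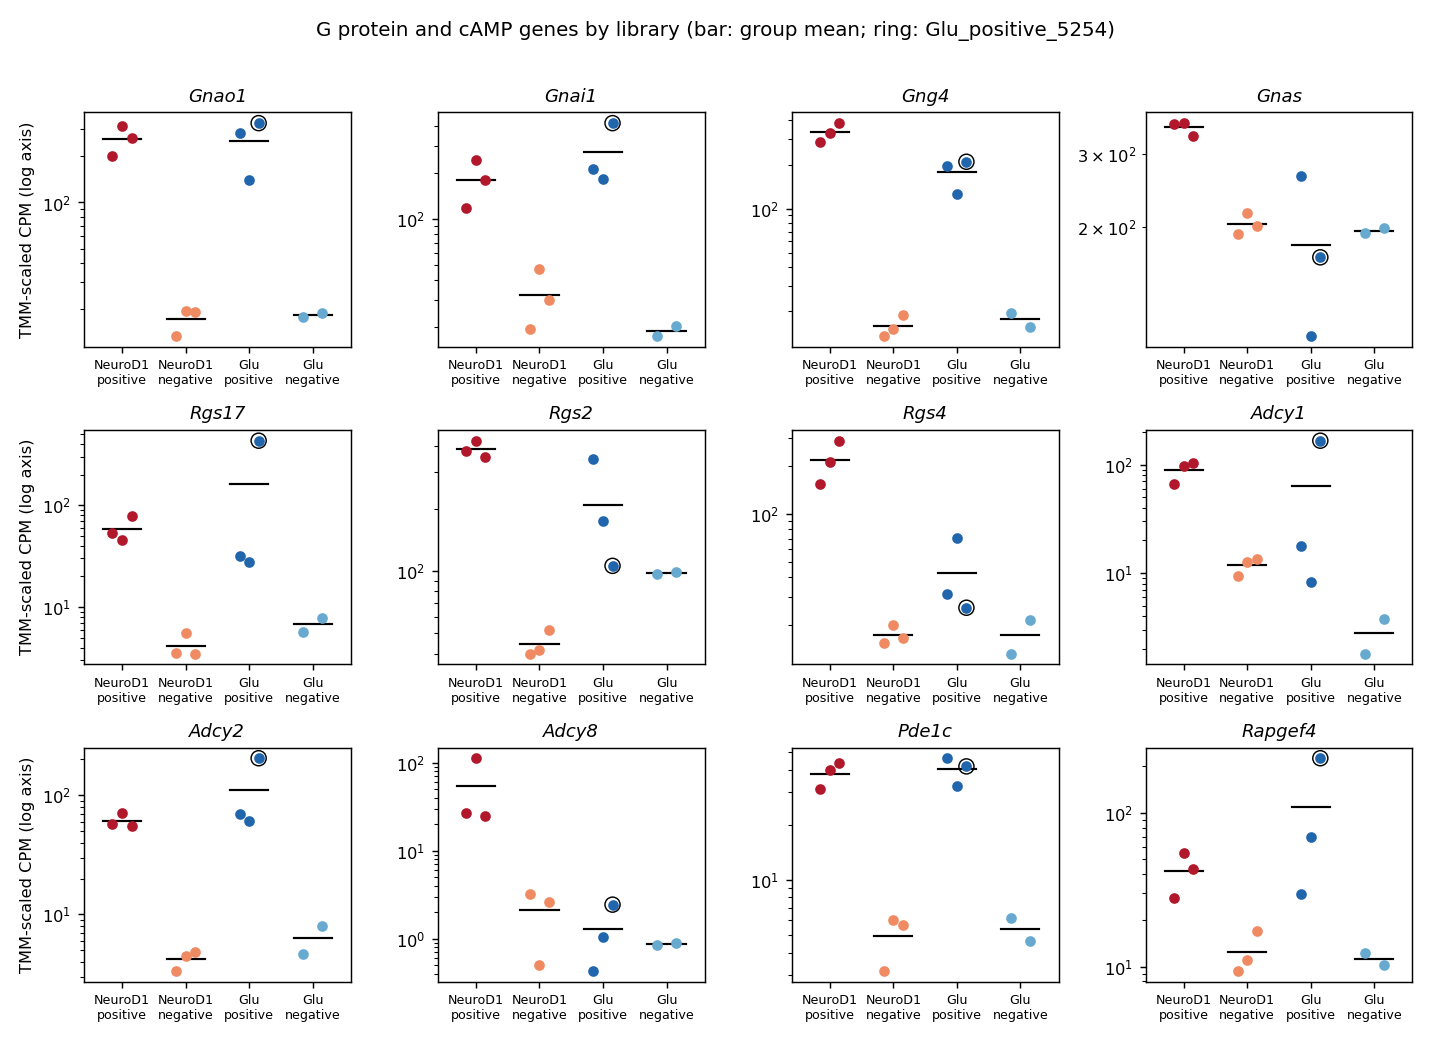
TMM-scaled CPM (log axis) of 12 members in each library, by group, with a bar at the group mean and a ring around Glu_positive_5254. For Gnao1, Gnai1, Gng4 and Adcy2 all positive libraries lie above all negative ones in both strains, for Rgs17, Adcy1 and Rapgef4 the ringed library stands highest of the Glu positive ones, and Adcy8 is high in the 3 NeuroD1 positive libraries with 24.6 to 112 CPM.

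Of 8 G gamma genes tested, 2 were higher and 0 lower in each strain. Of all genes tested, 6.57% were higher and 7.61% lower in NeuroD1 mice, and 4.22% and 2.41% in Glu mice. Gng4, a gamma subunit best known from brain, was at 283, 329 and 383 CPM in NeuroD1 positive cells, against 13.6, 15.1 and 18.8 CPM in NeuroD1 negative cells. It was at 209, 126 and 195 CPM in Glu positive cells, against 15.7 and 19.6 CPM in Glu negative cells. Positive and negative libraries were far apart in both strains, with a rise of 4.40 ± 0.36 in NeuroD1 mice (adjusted p = 5.03e-07, edgeR) and of 3.32 ± 0.40 in Glu mice (adjusted p = 8.98e-05). Gng4 made up 40.0% of all G gamma CPM per kilobase in NeuroD1 positive and 4.83% in NeuroD1 negative libraries, and 27.8% in Glu positive and 6.76% in Glu negative libraries. Gng12, a widely expressed gamma subunit, averaged 519 ± 83.8 CPM in NeuroD1 positive and 257 ± 79.8 CPM in NeuroD1 negative cells and rose by 1.01 ± 0.32 (adjusted p = 0.0401). In Glu mice Gng12 averaged 403 ± 65.7 CPM in positive cells (n = 3) and 146 ± 51.1 CPM in negative cells (n = 2) and rose by 1.47 ± 0.37 (adjusted p = 0.024).

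Of 3 G beta genes tested, 0 passed within either strain, beside 14.2% of all genes in NeuroD1 mice and 6.64% in Glu mice. Gnb1 held 90.6% to 91.7% of the G beta CPM per kilobase in every group mean, at 400 ± 66.5 CPM in NeuroD1 positive and 400 ± 77.7 CPM in NeuroD1 negative cells. Gnb2 followed at 20.2 to 28.8 CPM over the group means. Gnb4 stood at 0.382 to 0.734 CPM in NeuroD1 positive and 2.01 to 7.86 CPM in NeuroD1 negative libraries, and at 0.712 to 2.07 CPM in Glu positive and 3.22 to 7.30 CPM in Glu negative libraries, and did not pass. The visual cone subunit gene Gngt2, whose exons overlap Abi3 on the opposite strand over 12.5% of their length, was at 0 to 3.6 CPM in NeuroD1 positive and 5.24 to 9.16 CPM in NeuroD1 negative libraries and did not pass. Gng5 averaged 18.9 to 39.2 CPM over the groups, and Gng10 and Gng11 did not pass within either strain.

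The 250 bases before the start of transcription are shown for the G alpha, G gamma and cyclase genes that led the shared rise and for Prkar1a, from RefSeq on GRCm38.p6, 5′ to 3′ on the gene's strand. Capitals mark either the palindromic cAMP response element TGACGTCA or the E-box hexamer CAGATG, searched on both strands, where the hexamer reads CATCTG on the other strand.
Gnao1 promoter, chr8:93810588-93810837, plus strand: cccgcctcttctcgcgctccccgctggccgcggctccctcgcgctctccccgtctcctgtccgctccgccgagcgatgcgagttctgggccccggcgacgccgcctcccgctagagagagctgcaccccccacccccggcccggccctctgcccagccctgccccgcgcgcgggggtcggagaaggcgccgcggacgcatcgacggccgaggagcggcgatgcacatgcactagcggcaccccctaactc
Gng4 promoter, chr13:13783809-13784058, plus strand: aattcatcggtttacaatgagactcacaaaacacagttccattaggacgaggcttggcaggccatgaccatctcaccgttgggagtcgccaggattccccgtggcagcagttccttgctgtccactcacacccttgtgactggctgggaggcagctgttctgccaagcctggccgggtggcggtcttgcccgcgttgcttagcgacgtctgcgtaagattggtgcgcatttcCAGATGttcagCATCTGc
Adcy2 promoter, chr13:68999542-68999791, minus strand: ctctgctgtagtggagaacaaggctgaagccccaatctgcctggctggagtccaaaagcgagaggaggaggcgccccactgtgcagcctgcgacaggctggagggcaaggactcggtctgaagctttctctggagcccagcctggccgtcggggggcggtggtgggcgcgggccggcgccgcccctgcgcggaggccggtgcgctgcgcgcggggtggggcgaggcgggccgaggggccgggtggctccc
Prkar1a promoter, chr11:109650699-109650948, plus strand: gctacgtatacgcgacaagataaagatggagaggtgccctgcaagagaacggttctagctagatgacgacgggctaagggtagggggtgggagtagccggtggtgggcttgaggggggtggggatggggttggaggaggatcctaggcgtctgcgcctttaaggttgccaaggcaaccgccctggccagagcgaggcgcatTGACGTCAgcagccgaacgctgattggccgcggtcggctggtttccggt

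RefSeq promoter windows were found for 70 of the 91 members, 116 windows in all because a gene can have several starts. The cAMP response element lay in 1 of the 116, that of Prkar1a, beginning 49 bases before the start, and in 1.55% of the 32851 windows of all genes. The hexamer lay in 20 of the 116 member windows, or 17.2%, and in 14.4% of all windows. Of 13 windows of the 9 matched genes that were higher in both strains, 1 held the hexamer, that of Gng4, once on each strand and beginning 18 and 7 bases before the start. A match describes these letters only.

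Of 8 adenylyl cyclase genes tested, 3 were higher and 1 lower in NeuroD1 mice, and 2 were higher and 1 lower in Glu mice. Of all genes tested, 6.57% were higher and 7.61% lower in NeuroD1 mice, and 4.22% and 2.41% in Glu mice. Family sums and shares are given as levels, with no test. Summed per kilobase, the 9 cyclase genes came to 42.2 in NeuroD1 positive and 18.3 in NeuroD1 negative libraries, and to 42.5 in Glu positive and 18.5 in Glu negative libraries (CPM per kilobase, group means). Adcy6, a cyclase inhibited by calcium, made up 26.1% of that sum in NeuroD1 positive and 67.1% in NeuroD1 negative libraries, and 26.1% in Glu positive and 50.4% in Glu negative libraries. Its own level did not pass, at 73.4 ± 7.81 CPM in NeuroD1 positive and 83.6 ± 16 CPM in NeuroD1 negative cells, and 60.2 ± 11.1 CPM in Glu positive and 63.5 ± 11.9 CPM in Glu negative cells. Adcy2, which Gs and beta-gamma stimulate together, held 35.0% in NeuroD1 positive and 5.54% in NeuroD1 negative libraries, and 59.0% in Glu positive and 7.99% in Glu negative libraries.

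**Figure D3:**
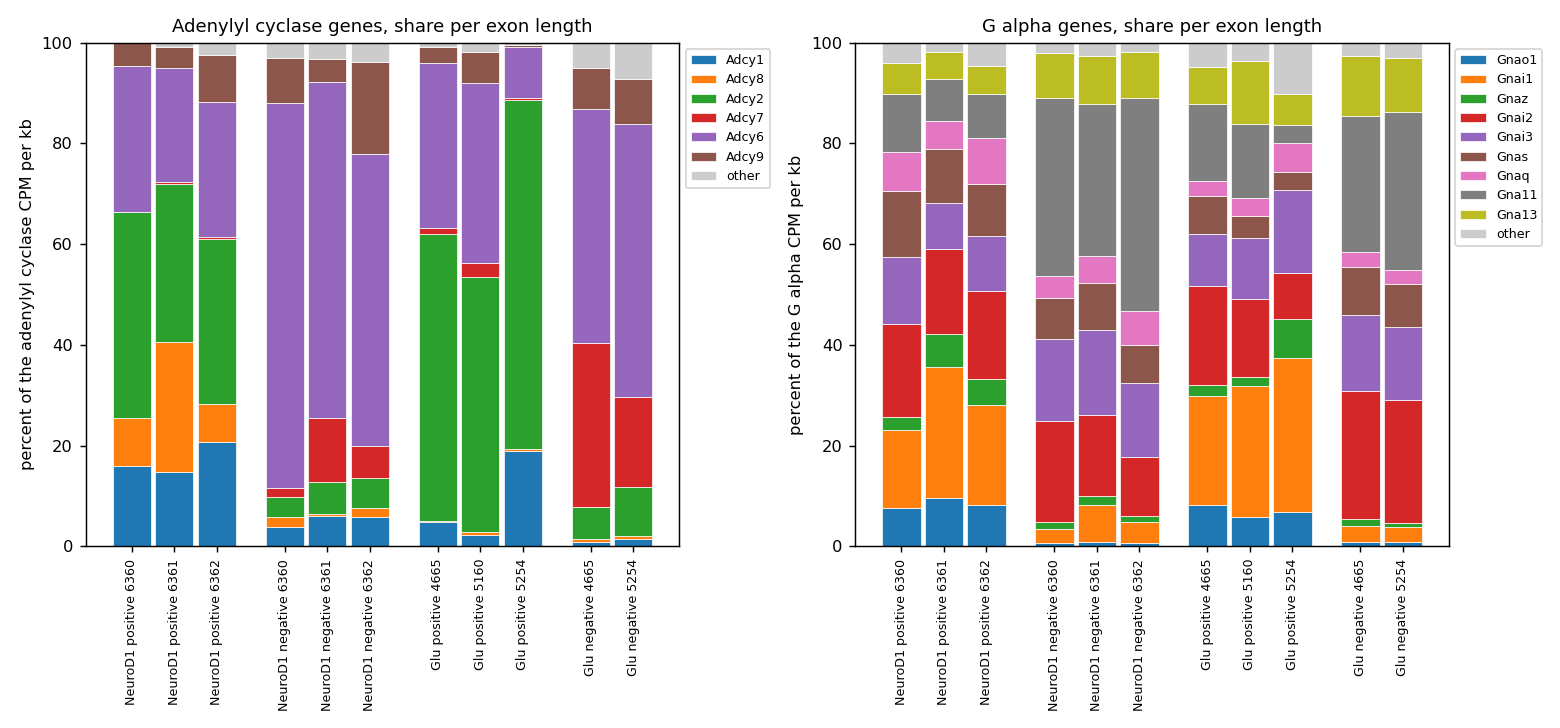
Share of each gene in the summed CPM per kilobase of exon of the adenylyl cyclase genes (left) and of the G alpha genes (right), in percent, 1 stacked bar per library. Adcy2 takes 31.5% to 69.3% of the cyclase bar in the 6 positive libraries and 4.04% to 9.69% in the 5 negative ones, and Gna11 takes at most 15.2% of the G alpha bar in the positive libraries and at least 27.0% in the negative ones.

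Adcy2 was at 57.7, 70.6 and 55.1 CPM in NeuroD1 positive cells, against 3.35, 4.52 and 4.80 CPM in NeuroD1 negative cells. It was at 204, 60.6 and 69.6 CPM in Glu positive cells, against 7.96 and 4.62 CPM in Glu negative cells. The groups lay apart in both strains, with a rise of 3.87 ± 0.54 in NeuroD1 mice (adjusted p = 7.17e-05, edgeR) and of 4.15 ± 0.62 in Glu mice (adjusted p = 0.000435), which was 3.39 without Glu_positive_5254. Adcy1, a cyclase stimulated by calcium and calmodulin, had 66.8, 98.0 and 104 CPM in NeuroD1 positive cells, against 9.34, 12.6 and 13.5 CPM in NeuroD1 negative cells. Glu mice had 166, 8.27 and 17.7 CPM in positive cells, against 3.76 and 1.82 CPM in negative cells. It rose by 2.93 ± 0.78 in NeuroD1 mice (adjusted p = 0.0152) and by 4.53 ± 1.00 in Glu mice (adjusted p = 0.011), where 1 library carried much of the size: without Glu_positive_5254 the rise was 2.27 (adjusted p = 0.0149).

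Adcy8, the other calcium-stimulated cyclase, was at 26.4, 112 and 24.6 CPM in NeuroD1 positive cells, against 3.17, 0.502 and 2.62 CPM in NeuroD1 negative cells. It was at 2.43, 1.03 and 0.427 CPM in Glu positive cells, against 0.884 and 0.840 CPM in Glu negative cells. The rise in NeuroD1 mice was 4.58 ± 0.82 (adjusted p = 0.000845, edgeR), or 3.52 without NeuroD1_positive_6361, and the Glu groups overlapped and did not pass. The remaining cyclases were low: Adcy9 averaged 5.12 to 13 CPM over the groups, Adcy3 and Adcy5 at most 3.42 CPM, and Adcy4 was at 0 in every NeuroD1 positive library.

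Of the 6 protein kinase A genes, Prkar1a, the main type I regulatory subunit, passed in NeuroD1 mice, beside 14.2% of all genes tested. It was at 304, 378 and 319 CPM in NeuroD1 positive cells, against 141, 142 and 133 CPM in NeuroD1 negative cells, a rise of 1.27 ± 0.30 (adjusted p = 0.00777, edgeR). The groups did not overlap, as holds with the positive cells higher for 18.3% of all genes tested. In Glu mice it had 257, 153 and 266 CPM in positive cells, against 146 and 140 CPM in negative cells, and did not pass. The brain-enriched regulatory subunit gene Prkar1b was at 17.6 to 29.2 CPM in NeuroD1 positive and 3.70 to 6.55 CPM in NeuroD1 negative libraries, and at 2.07 to 18.1 CPM in Glu positive and 0.700 and 1.55 CPM in Glu negative libraries, without passing in either strain. Prkar2a averaged 111 to 165 CPM over the groups and Prkacb 60.1 to 97.7 CPM, while Prkar2b averaged at most 3.58 CPM.

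Epac proteins carry cAMP signals to Rap GTPases without protein kinase A. Rapgef4, which encodes Epac2, a sensor known from insulin secretion in pancreatic islets, was at 226, 69.6 and 29.6 CPM in Glu positive cells, against 10.2 and 12.2 CPM in Glu negative cells. It rose by 3.27 ± 0.71 (adjusted p = 0.00986, edgeR), and by 2.14 without Glu_positive_5254 (adjusted p = 0.0209). In NeuroD1 mice Rapgef4 had 27.9, 54.9 and 43.2 CPM in positive cells, against 9.34, 11 and 17.0 CPM in negative cells, and did not pass. The groups did not overlap, as holds with the positive cells higher for 18.3% of all genes tested. Rapgef3, which encodes Epac1, was at 0 to 1.91 CPM in NeuroD1 positive and 3.06 to 6.02 CPM in NeuroD1 negative libraries and passed in neither strain.

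Of 22 phosphodiesterase genes tested, 4 were higher and 1 lower in NeuroD1 mice, and 2 were higher and 1 lower in Glu mice, beside 6.57% higher and 7.61% lower of all genes in NeuroD1 and 4.22% and 2.41% in Glu mice. Pde1c, whose product is switched on by calcium and calmodulin and cleaves cAMP and cGMP, was at 31.2, 39.7 and 43.2 CPM in NeuroD1 positive cells, against 3.17, 6.02 and 5.68 CPM in NeuroD1 negative cells. It was at 41.6, 32.4 and 46.1 CPM in Glu positive cells, against 4.64 and 6.16 CPM in Glu negative cells. The positive libraries lay in a narrow band in both strains and clear of the negative ones, with a rise of 2.97 ± 0.51 in NeuroD1 mice (adjusted p = 0.000558, edgeR) and 2.88 ± 0.58 in Glu mice (adjusted p = 0.00552).

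Pde6c, the catalytic subunit gene of cone photoreceptors, was at 2.94, 3.05 and 3.18 CPM in NeuroD1 positive cells and at 0 in all NeuroD1 negative libraries. With 31 counts against 0 over the groups and a floor of 3 counts, this is at least 10.2-fold higher in NeuroD1 positive cells (adjusted p = 0.02, edgeR). In Glu mice it had 0.607, 29.3 and 8.26 CPM in positive cells, against 0.221 and 0.140 CPM in negative cells, so that its level varied widely among the Glu positive libraries. On 145 against 2 counts this is a ratio of 63.9, with a 95% counting interval of 17.4 to 533 (exact, Clopper-Pearson), and it passed (adjusted p = 0.0283). Such intervals and floors cover counting error only.

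In NeuroD1 mice the dual cAMP and cGMP phosphodiesterase gene Pde11a rose by 4.10 ± 0.84 (adjusted p = 0.00252, edgeR), at 16.9, 19.8 and 18.4 CPM in positive cells, against 0.881, 1.00 and 1.31 CPM in negative cells. Pde8a, a cAMP-specific enzyme of high affinity, rose by 1.95 ± 0.58 (adjusted p = 0.0309), at 29.8 ± 8.40 CPM in positive and 7.56 ± 2.98 CPM in negative cells. In Glu mice neither passed: Pde11a had 1.82, 11 and 3.70 CPM in positive cells, against 0.884 and 1.40 CPM in negative cells, and Pde8a 14.6 ± 8.47 CPM in positive and 6.24 ± 1.5 CPM in negative cells. Pde3b, the insulin-regulated enzyme, averaged 44 ± 2.73 CPM in NeuroD1 positive and 25.9 ± 4.68 CPM in NeuroD1 negative cells, and Pde5a, the cGMP-specific target of sildenafil, 21.4 ± 7.10 CPM in NeuroD1 positive and 44 ± 6.61 CPM in NeuroD1 negative cells. Neither passed in either strain. Not divided by exon length, the highest CPM of the family was that of the scaffold gene Pde4dip, at 67.9 to 133 CPM over the group means. The remaining tested members other than Pde4b averaged at most 55.7 CPM in any group. Per kilobase of exon, Pde4dip averaged 7.9 in NeuroD1 positive, 4.83 in NeuroD1 negative, 5.63 in Glu positive and 4.03 in Glu negative libraries. Pde9a, which passed in neither strain, averaged 5.69, 8.31, 10.1 and 8.39 in the same order.

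Of 17 RGS genes tested, 4 were higher, 2 lower and 11 did not pass in NeuroD1 mice, where 14.2% of all genes passed, and 2 were higher, 1 lower and 14 did not pass in Glu mice, where 6.64% did. Rgs17, of the RZ class that acts on Gz and other Gi proteins, was at 53.6, 45.8 and 77.6 CPM in NeuroD1 positive cells, against 3.52, 5.52 and 3.49 CPM in NeuroD1 negative cells. Glu mice had 430, 27.9 and 31.5 CPM in positive cells, against 7.74 and 5.74 CPM in negative cells. It rose by 3.84 ± 0.84 in NeuroD1 mice (adjusted p = 0.00411, edgeR) and by 4.60 ± 0.98 in Glu mice (adjusted p = 0.00839), the last being 2.15 without Glu_positive_5254 (adjusted p = 0.0129). Rgs7, a neuronal RGS gene whose product pairs with the beta subunit Gnb5 and acts on Go, had 11, 24.4 and 23.5 CPM in NeuroD1 positive cells, against 3.70, 4.02 and 4.37 CPM in NeuroD1 negative cells. It had 14.0, 17.9 and 21.6 CPM in Glu positive cells, against 1.99 and 1.12 CPM in Glu negative cells. Rgs7 rose by 2.29 ± 0.60 in NeuroD1 mice (adjusted p = 0.0151) and by 3.52 ± 0.75 in Glu mice (adjusted p = 0.00813), while Gnb5 averaged 0.862 to 1.76 CPM over the groups and was too low to be tested.

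Rgs2 and Rgs4, small RGS proteins of the R4 class that act on Gq and Gi, were the most abundant RGS genes of NeuroD1 positive cells, with 55.2% and 35.6% of the family's CPM per kilobase. Rgs2 was at 380, 426 and 354 CPM in NeuroD1 positive cells, against 40.0, 41.7 and 51.9 CPM in NeuroD1 negative cells, and rose by 3.12 ± 0.39 (adjusted p = 3.35e-05, edgeR). Rgs4 was at 155, 211 and 289 CPM in NeuroD1 positive cells, against 15.5, 20.1 and 16.6 CPM in NeuroD1 negative cells, and rose by 3.66 ± 0.45 (adjusted p = 2.68e-05). In Glu mice neither passed, although the positive libraries lay above the negative ones for both, as they did for 15.8% of all genes tested. Rgs2 had 106, 175 and 346 CPM in Glu positive cells, against 98.6 and 96.8 CPM in Glu negative cells, and Rgs4 25.8, 70.3 and 31.5 CPM, against 21.7 and 13.3 CPM.

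The lower set held Rgs1, Rgs5, Adcy7 and Pde4b in NeuroD1 mice, beside Gna11. Rgs1, an R4-class gene known from lymphocytes, was at 0.734, 1.53 and 3.18 CPM in NeuroD1 positive cells, against 74.2, 67.3 and 55.0 CPM in NeuroD1 negative cells, a change of -5.06 ± 0.71 (adjusted p = 8.42e-05, edgeR), or -5.82 without NeuroD1_positive_6362. Adcy7, a cyclase known from blood cells, was at 0, 1.14 and 0.848 CPM in NeuroD1 positive cells, against 2.29, 14.1 and 7.86 CPM in NeuroD1 negative cells, a change of -3.48 ± 0.93 (adjusted p = 0.016). In Glu mice Adcy7 had 2.43, 5.51 and 2.14 CPM in positive cells, against 23.4 and 38.2 CPM in negative cells, a change of -3.22 ± 0.86 (adjusted p = 0.0307). Adcy7 failed in NeuroD1 mice without NeuroD1_negative_6361 (-2.79, adjusted p = 0.0821), NeuroD1_positive_6360 (0.0598) or NeuroD1_positive_6362 (0.0526), and in Glu mice without any 1 library but Glu_positive_5160 (0.0534 to 0.238). Positive and negative libraries did not overlap for either gene in these comparisons. The same held, with positive cells lower, for 17.2% of all genes tested in NeuroD1 mice and 16.5% in Glu mice. Pde4b, the cAMP-specific phosphodiesterase gene prominent in leukocytes, was at 9.18, 0.382 and 5.09 CPM in NeuroD1 positive cells, against 49.3, 27.6 and 27.5 CPM in NeuroD1 negative cells (-2.83 ± 0.68, adjusted p = 0.00856, or -3.56 without NeuroD1_positive_6360). Glu mice had 11.2, 8.27 and 5.13 CPM in positive cells, against 55.1 and 65.7 CPM in negative cells (-2.89 ± 0.71, adjusted p = 0.0198).

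Rgs5, known from pericytes, was at 2.2, 6.10 and 3.39 CPM in NeuroD1 positive cells, against 69.3, 14.6 and 20.1 CPM in NeuroD1 negative cells, a change of -3.17 ± 0.77 (adjusted p = 0.00883, edgeR), which became -2.16 without NeuroD1_negative_6360 (adjusted p = 0.0948). Rgs3 passed on the lower side in Glu mice with 4.85, 8.96 and 8.83 CPM in positive cells, against 37.8 and 34.7 CPM in negative cells (-2.26 ± 0.63, adjusted p = 0.0373). Rgs10 stood at 0.367 to 0.424 CPM in NeuroD1 positive and 1.31 to 6.02 CPM in NeuroD1 negative libraries, and at 2.43 to 3.10 CPM in Glu positive and 13.3 and 13.9 CPM in Glu negative libraries, and did not pass. The other tested RGS genes, Rgs8, Rgs9, Rgs12, Rgs13, Rgs14, Rgs16, Rgs19 and Rgs22, averaged at most 13.5 CPM in any group and passed in neither strain.

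Markers of several other cell types were also lower in NeuroD1 positive cells. Summed over 13 lymphoid and myeloid genes (without the immunoglobulin gene Igha), they came to 48.8 to 112 CPM in NeuroD1 positive and 580 to 1042 CPM in NeuroD1 negative libraries, and to 536 to 2742 CPM in Glu positive and 2076 and 2101 CPM in Glu negative libraries. With Igha, all 14 were lower in NeuroD1 mice and 7 of 14 in Glu mice, and none was at 0 throughout a group. Summed stromal, smooth muscle and endothelial markers were 45.5 to 122 CPM in NeuroD1 positive and 224 to 492 CPM in NeuroD1 negative libraries, with 4 of 12 lower, and 90.6 to 375 CPM in Glu positive and 402 and 505 CPM in Glu negative libraries, with 0 of 12. Tuft cell markers were 13.6 to 53.8 CPM in NeuroD1 positive and 109 to 165 CPM in NeuroD1 negative libraries, with 4 of 9 lower, and 20.9 to 109 CPM in Glu positive and 140 and 179 CPM in Glu negative libraries, with 2 of 9. Summed goblet cell markers were 344 to 549 CPM in NeuroD1 positive and 2196 to 3131 CPM in NeuroD1 negative libraries, with 5 of 5 lower, and 870 to 2511 CPM in Glu positive and 3073 and 3996 CPM in Glu negative libraries, with 1 of 5. Paneth cell markers were 122 to 234 CPM in NeuroD1 positive and 539 to 2631 CPM in NeuroD1 negative libraries, with 5 of 5 lower, and 151 to 466 CPM in Glu positive and 378 and 1549 CPM in Glu negative libraries, with 0 of 5. Of the 8 enterocyte markers, 7 were lower in NeuroD1 mice, and 4 were lower and 1 higher in Glu mice. The part of any of these cells in the lower levels was not tested.

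**Figure D4:**
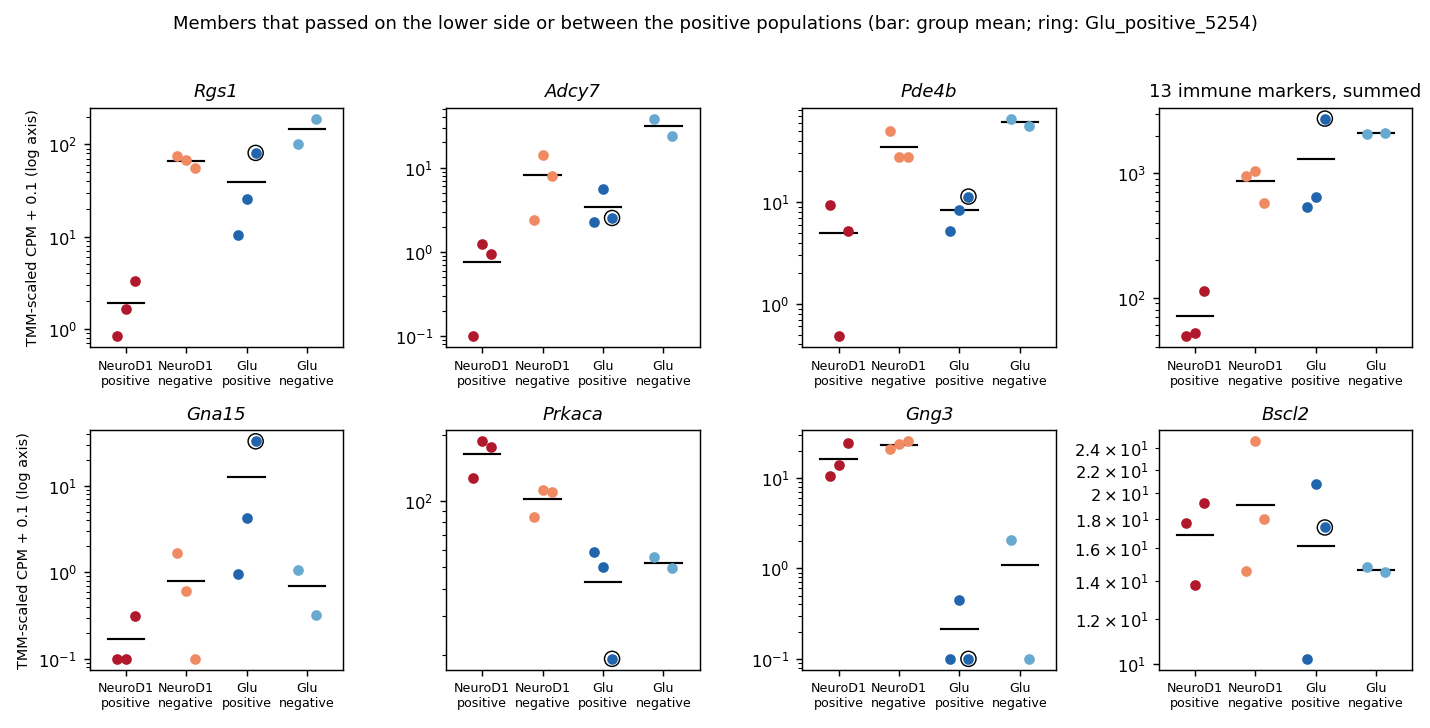
TMM-scaled CPM plus 0.1 (log axis) by library for members that were lower in positive cells or differed between the positive populations, with the summed level of 13 immune markers and with Bscl2, the gene on the strand opposite Gng3; bars are group means and the ring marks Glu_positive_5254. Rgs1, Adcy7 and Pde4b have their lowest group mean in NeuroD1 positive libraries, as have the immune, tuft, stromal, goblet and Paneth marker sums. Each of these genes averages less in Glu positive than in NeuroD1 negative libraries (Rgs1 38.9 and 65.5, Adcy7 3.36 and 8.07, Pde4b 8.21 and 34.8 CPM). The immune sum averages more in Glu positive libraries, at 2742, 646 and 536 CPM against 956, 1042 and 580 CPM, with Glu_positive_5254 highest. Whether the genes follow any of these sums was not tested. Gng3 is at 10.3 to 25.3 CPM in the 6 NeuroD1 libraries and at 0 to 1.96 CPM in the 5 Glu libraries. Bscl2 is at 10.1 to 24.6 CPM in all 11.

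Single libraries decided some of these calls. In NeuroD1 mice Gnaz and Gng12 each failed the test when any 1 of 5 of the 6 libraries was left out (adjusted p = 0.0851 to 0.145 and 0.0598 to 0.169, edgeR), and Rgs7 and Pde8a likewise for any 1 of 5 (0.0523 to 0.0745 and 0.0513 to 0.127). In Glu mice 11 of the 15 members failed when either Glu negative library was left out, which leaves 1 and assumes that it varies as libraries of the other groups do, and Gnai1, Gnao1, Gng4 and Adcy2 still passed.

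Set against each other, NeuroD1 positive and Glu positive cells differed in 9 members, 5 higher and 4 lower in NeuroD1 positive cells, where 8.13% of all genes passed (3.18% higher and 4.95% lower). Strain, reporter and library set cannot be told apart here. The higher ones were Gng3, Adcy8, Rgs7bp, Rgs4 and Prkaca. Prkaca, the main catalytic subunit gene of protein kinase A, stood at 127, 187 and 177 CPM in NeuroD1 positive cells, against 19.1, 50.3 and 58.5 CPM in Glu positive cells, with no overlap and a difference of 1.94 ± 0.39 (adjusted p = 0.00528, edgeR). NeuroD1 negative cells had 84.6 to 112 CPM of it and Glu negative cells 49.5 and 55.5 CPM. Adcy8, with the levels given above, was higher by 5.44 ± 0.86 (adjusted p = 0.000812), or 4.35 without NeuroD1_positive_6361 and 6.31 without Glu_positive_5254. Rgs4 was higher by 2.37 ± 0.42 (adjusted p = 0.00196), again with no overlap. Groups that did not overlap, with NeuroD1 positive cells higher, were found for 11.4% of all genes tested.

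Gng3, a gamma subunit gene of neurons on chromosome 19, was at 10.3, 13.7 and 24.4 CPM in NeuroD1 positive cells, against 0, 0.344 and 0 CPM in Glu positive cells. On 179 against 1 counts this is a ratio of 235, with a 95% counting interval of 41.7 to 9341 (adjusted p = 0.00106, edgeR). The negative populations were set apart in the same way, with 20.6, 23.6 and 25.3 CPM in NeuroD1 negative cells, against 0 and 1.96 CPM in Glu negative cells. This did not pass (adjusted p = 0.0762, edgeR) but did with no filter (4.38, adjusted p = 0.00165, edgeR) and in DESeq2 (4.46, adjusted p = 5.83e-05). Without Glu_negative_4665 the Glu negative group was 1 library at 0, and the fitted 9.43 is no bound. Gng3 shares 24.2% of its exon bases, 398 in number, with Bscl2 on the opposite strand. Bscl2 stood at 10.1 to 24.6 CPM in all 11 libraries and did not pass between the positive populations (0.08 on the log2 scale, adjusted p = 0.942).

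Rgs7bp was at 4.41, 19.8 and 2.97 CPM in NeuroD1 positive cells, against 0, 0.689 and 0.712 CPM in Glu positive cells, a difference of 4.11 ± 1.16 (adjusted p = 0.0342, edgeR) that was 2.81 without NeuroD1_positive_6361 (adjusted p = 0.202). The lower ones were Rgs1, Rgs5, Gna15 and Gng2. Rgs1 had 0.734, 1.53 and 3.18 CPM in NeuroD1 positive cells, against 80.7, 25.5 and 10.4 CPM in Glu positive cells (-4.30 ± 0.70, adjusted p = 0.000991), and was at -3.15 without Glu_positive_5254 and -5.06 without NeuroD1_positive_6362. Gna15, a promiscuous Gq-class subunit gene known from blood cells, had 0, 0 and 0.212 CPM in NeuroD1 positive cells, against 32.8, 4.13 and 0.855 CPM in Glu positive cells. On 1 against 126 counts it was lower by a ratio of 95.9, with a 95% counting interval of 16.9 to 3817 (adjusted p = 0.0144), and it failed the test without any 1 of the NeuroD1 positive libraries (adjusted p = 0.0553 to 0.0671). Most of the 126 counts came from Glu_positive_5254, and no test value of Gna15 without that library is given.

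Gng2, a gamma subunit gene widely found in blood cells and brain, had 30.1, 22.1 and 17.6 CPM in NeuroD1 positive cells, against 184, 43.8 and 32.5 CPM in Glu positive cells (-1.90 ± 0.57, adjusted p = 0.0481, edgeR). Without Glu_positive_5254 the difference was -0.71 (adjusted p = 0.383). Rgs5 had 2.2, 6.10 and 3.39 CPM in NeuroD1 positive cells, against 27.6, 44.1 and 5.70 CPM in Glu positive cells, where the groups overlapped (-2.72 ± 0.76, adjusted p = 0.0329), and without Glu_positive_5160 it was at -2.06 (adjusted p = 0.113). The immune marker sum was 48.8, 51.5 and 112 CPM in NeuroD1 positive libraries, against 2742, 646 and 536 CPM in Glu positive libraries, with 9 of 14 markers lower in NeuroD1 positive cells. The goblet marker sum was 344 to 549 CPM in NeuroD1 positive and 870 to 2511 CPM in Glu positive libraries, with 5 of 5 lower. The part of either in the levels of Rgs1, Rgs5, Gna15 and Gng2 was not tested.

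Between the NeuroD1 negative and Glu negative populations 0 members passed in edgeR, where 0.488% of all genes did (0.363% higher and 0.126% lower in NeuroD1 negative cells). At an unadjusted p under 0.05 there were 12 members, beside 9.04% of all genes, and DESeq2 called 1, Gng3. Whether the difference between positive and negative cells itself differed between the strains was tested as an interaction, in which 0 members passed in edgeR, where 0.112% of all genes did (0.0907% higher and 0.0209% lower in NeuroD1 mice). At an unadjusted p under 0.05 there were 11 members, beside 10.9% of all genes. DESeq2 called Rgs2 and Rgs4 higher and Rgs1 lower in this test (2.02, 2.33 and -3.30, adjusted p = 0.0499, 0.0467 and 0.0495). With no filter on low counts edgeR called Adcy8 (4.09, adjusted p = 0.0299), Rgs2 (2.01, 0.0243) and Rgs4 (2.38, 0.0209) higher and Rgs1 (-3.14, 0.00415) and Gna15 (-7.00, 0.0172) lower. It also called Rgs4 without Glu_positive_5160 (2.92, adjusted p = 0.0349) and Rgs2 without Glu_positive_4665 (2.59, 0.0209). The outcome of the interaction test for these genes depended on the setting.

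Other genes of these pathways were counted from lists of regulators, anchors, effectors and channels, to be read beside the 14.2% of all genes that passed in NeuroD1 mice and the 6.64% in Glu mice. Of 15 tested regulators and anchors of protein kinase A, the inhibitor genes Pkia (2.34 ± 0.64, adjusted p = 0.0184, edgeR) and Pkib (1.89 ± 0.44, adjusted p = 0.00722) were higher in NeuroD1 positive cells, Pkia alone in Glu positive cells (2.77 ± 0.76, adjusted p = 0.0358), and 0 were lower. Pkib had 58.4, 62.6 and 85.8 CPM in NeuroD1 positive cells, against 16, 14.1 and 25.8 CPM in NeuroD1 negative cells. Of 4 phospholipase C beta genes, the effectors of Gq, Plcb4 was higher in both strains, at 154, 107 and 149 CPM in NeuroD1 positive and 9.87, 23.1 and 16.2 CPM in NeuroD1 negative cells (3.08 ± 0.45, adjusted p = 0.000127), and by 2.40 ± 0.50 in Glu mice (adjusted p = 0.00744). In NeuroD1 mice Plcb3 (-2.28 ± 0.41, adjusted p = 0.000876) and the tuft cell gene Plcb2 (-4.42 ± 0.77, adjusted p = 0.000624) were lower.

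Of 3 cyclic nucleotide-gated channel genes that could be tested, Hcn4, a pacemaker channel opened by cAMP, was higher in NeuroD1 positive cells (3.69 ± 0.82, adjusted p = 0.00472, edgeR), at 38.2, 16 and 19.5 CPM against 1.23, 1.51 and 3.06 CPM in NeuroD1 negative cells. Of 4 guanylyl cyclase and cGMP kinase genes, the guanylin receptor gene Gucy2c was higher in both strains, by 1.25 ± 0.34 in NeuroD1 mice (adjusted p = 0.0181) and 1.47 ± 0.39 in Glu mice (adjusted p = 0.0303). Of 7 receptor kinase and arrestin genes, Arrb1 was lower in NeuroD1 mice (-1.45 ± 0.47, adjusted p = 0.0467) and 0 changed in Glu mice. Of 9 G protein chaperones and modulators, Gpsm3 was lower in NeuroD1 mice, at 0 in the 3 positive libraries and at 5.11, 3.01 and 1.75 CPM in the negative ones. Of 9 genes of cAMP-responsive transcription, 0 passed in either strain in edgeR.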

How the data were processed

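The table deposited by the authors held estimated counts, 1 column per library, on the build GRCm38. Cufflinks 2.2.1, TopHat2 2.1.0 and CASAVA are listed, without their roles, in the submitters' processing notes. Amplified libraries had been made from 2 ng of total RNA, per the labels' protocols. The annotation release and any use of strand are not named in the labels, so overlapping, antisense and near-identical genes may share reads. Values were not whole in 848 genes, and the expected counts were rounded before any test. Symbols and coordinates were matched in GENCODE vM21 for 36341 of 38283 genes. Levels were divided by union exon length for family sums, shares and values per kilobase, and other levels were not.

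Genes were tested with edgeR 4.0.16 (R 4.3.3): filterByExpr (14332 genes kept), TMM scaling, 4 group means over all 11 libraries and the quasi-likelihood test, with Benjamini-Hochberg adjustment over all genes tested and calls at an adjusted p under 0.05. The SE is the log2 fold change divided by the square root of F. A group at 0 was set to 3 counts in all as a floor, and with 1 to 3 counts the ratio has an exact 95% counting interval. Replicates of a group differed beyond sampling noise in every pair (chi-square per degree of freedom 15.3 to 135), so none were merged. The script was tested on simulated data. Over all genes tested, same-numbered positive and negative libraries deviated together little (correlations 0.0098 to 0.046), so the numbers were not used as pairs. Such correlations do not exclude pairing, and single genes such as Rgs7bp were high in both libraries of a number.

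Fold changes are printed for members that passed, and levels for members that did not, of each family the most abundant and those needed to account for it. Of the other pathway and marker lists, counts by direction and up to 4 members that passed are printed. The members and lists were chosen with earlier results of these data known. Alternatives were RLE scaling, library totals, no filter, at least 1 CPM in 3 libraries, DESeq2 1.42.0, the compared groups alone, a replicate block, the genes mt-Rnr1 and mt-Rnr2 left out, and each library left out.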

Additional observations from a re-analysis of the deposited data

How the results depend on the processing

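Over 608 values of called members under the alternatives, 0 turned sign and 95 no longer passed. DESeq2 gave no adjusted p for Rgs17 and Adcy1. In NeuroD1 mice (17 higher, 5 lower) DESeq2 called 9 lower, and leaving out a library gave 11 to 17 higher and 4 to 6 lower. In Glu mice (12 higher, 3 lower) the compared groups alone gave 6 higher, and leaving out a library gave 4 to 14 higher and 0 to 3 lower. Between the positives (5 higher, 4 lower) library totals gave 9, no filter 8, DESeq2 9 and the compared groups alone 1 lower, and leaving out a library gave 4 to 8 higher and 1 to 7 lower. For the strain difference (0 either way) no filter gave 3 higher and 2 lower, DESeq2 2 higher and 1 lower, and leaving out a library 0 to 1 higher (Rgs4, 2.92, adjusted p = 0.0349, edgeR, without Glu_positive_5160 or Rgs2, 2.59, 0.0209, without Glu_positive_4665) and 0 lower. Between the negatives no filter gave 1 higher (Gng3) and 1 lower (Pde1b), DESeq2 1 higher, and leaving out a NeuroD1 negative library 0 higher and 0 lower. Without Glu_negative_4665 the Glu negative group was 1 library at 0 for Gng3, and the fitted difference of 9.43 is no bound. The cause was not tested. Scaling by library totals put the median over all genes, on the log2 scale, at -0.28 in NeuroD1 mice, -0.19 in Glu mice, -0.51 between positives and -0.39 between negatives, against 0.02, 0.12, -0.14 and -0.01 with TMM, and the share of calls on the higher side was 31.5%, 42.4% and 19.3% in the first 3 comparisons, against 46.3%, 63.6% and 39.1%. Gnaz, Gng12, Rgs7, Pde8a and Prkar1a then failed in NeuroD1 mice and Gnaz and Gng12 in Glu mice.

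The labels do not say what the library numbers stand for, and same-numbered libraries deviated together little over all genes tested. With the replicate block 17 members were higher and 5 lower in NeuroD1 mice and 10 higher and 2 lower in Glu mice, where Gnaz, Rgs3 and Pde6c failed, as Pde8a did in NeuroD1 mice, and 0 passed for the strain difference.

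Calls lost without a single library not given above were Adcy1 in NeuroD1 mice (without NeuroD1_negative_6360, 2.78, adjusted p = 0.073, edgeR) and Pde6c there (without NeuroD1_negative_6360 or NeuroD1_negative_6362, 0.0949 and 0.0543). In Glu mice they were Pde4b without Glu_positive_4665 (0.0514) and Rgs3 without Glu_positive_5160 or Glu_positive_5254 (0.0526 and 0.0606). Without Glu_negative_4665 the 11 lost calls had adjusted p = 0.08 to 0.294, and without Glu_negative_5254 0.0677 to 0.3. Between the positives, Gng2 failed without any NeuroD1 positive library (0.0963 to 0.163), Rgs5 without any library but Glu_positive_4665 (0.053 to 0.131) and Rgs7bp without NeuroD1_positive_6360, Glu_positive_5160 or Glu_positive_5254 (0.0511, 0.0686 and 0.0936). The Gng3 difference was 6.38 without Glu_positive_4665. Without Glu_positive_5160 the Glu positive group was at 0 for Gng3, and the fitted 9.09 is no bound. With 2 or 3 libraries a group and 2279595 to 5722381 counts each, members at a few counts had wide intervals, and a member that did not pass is not shown to be equal.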

Other observations

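Glu_positive_5254 held the highest level of several members, chosen here after their values were seen. Rgs17 was at 430 CPM there and at 27.9 and 31.5 CPM in the other Glu positive libraries, and Rapgef4 at 226 against 69.6 and 29.6 CPM. Low members of the G protein families followed: Gng10 was at 84.3 against 2.41 and 1.85 CPM, Gna15 at 32.8 against 4.13 and 0.855 CPM, Rgs8 at 16.7 against 0.344 and 0.285 CPM, and Rgs11 at 18.5 against 0.689 and 0.142 CPM. The same library had 923 CPM of the T cell gene Cd4, against 72.3 and 114 CPM in the other Glu positive libraries. Of the same marker list, Ptprc, Cd3e, Cd3g, Nkg7 and Lcp1 were also highest there among the Glu positive libraries. The others, Cd8a, Cd79a, Cd79b, Ccl5, Fcer1g, Tyrobp, Coro1a and Igha, were highest in Glu_positive_5160. Whether these levels have 1 source was not tested.

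Rgs7bp was high in NeuroD1_positive_6361 and NeuroD1_negative_6361, at 19.8 and 17.1 CPM, while the other NeuroD1 libraries had 2.97 and 4.41 CPM in positive and 2.29 and 2.62 CPM in negative cells. Rgs9, an R7-class gene, was at 32.4 CPM in NeuroD1_positive_6361, against 1.84 and 6.36 CPM in the other NeuroD1 positive libraries, and at 1.23 to 3.06 CPM in the NeuroD1 negative ones. Of the cGMP phosphodiesterase subunits of rods and cones, Pde6a, Pde6b and Pde6g stayed under 2 CPM in every library.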
